A study of Mus musculus with 12 samples.

Results

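The genes described here stood low in 5NC, a vector control, in testes of F1 mice. Gm40011, A530064D06Rik, Gtf2ird2, Dchs1, Cwc22, 9830107B12Rik, Cst9, Trim6, Bdh1 and A630023A22Rik were selected on their low values in 5NC against 3NC, 10 of 20788 genes in the deposited table. All 10 passed a filter on low reads that left 16388 genes. RNA-seq covered 4 groups of 3 libraries. Per the study's methods, males were injected in the testes with a lentivirus at 4 weeks of age and mated 5 weeks later with untreated females, and their male offspring were sampled at 8 weeks. The knockdown group came from males given short hairpin RNAs against lncRNA5251, a long non-coding RNA, in the LV3 vector, and 3NC from males given the control virus of LV3. The overexpression group came from males given full-length lncRNA5251 in the LV5 vector, and 5NC from males given LV5 alone. Every group thus descended from males that had received a lentivirus, and no untreated group was analysed here. The design text of the series says instead that the virus was given to the F1 testes. The labels name the strain "IRC mouse" and the study calls it ICR, an outbred stock in which litters differ in genotype. Genotypes were not measured, and whether a group's 3 libraries stem from different animals or litters is not stated in the labels. The p-values therefore reflect the spread among libraries, some of which may be technical.

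The members do not form 1 pathway. A530064D06Rik and 9830107B12Rik, also called Trem4 and Trem5, belong to the TREM family of immunoglobulin-type receptors, whose best known members sit on myeloid immune cells. Trim6 is a ubiquitin ligase of innate immune signalling. Dchs1 is a very large protocadherin that binds Fat4 on the next cell and orients cells within a tissue. Gtf2ird2 belongs to the GTF2I family of transcription factors, and Cwc22 is a splicing factor that brings Eif4a3 to the spliceosome to start the exon junction complex. Cst9, or testatin, is a cystatin-related protein known from the supporting cells of the fetal testis, and Bdh1 is the mitochondrial enzyme that interconverts the ketone bodies 3-hydroxybutyrate and acetoacetate. No role is given here for Gm40011 or A630023A22Rik. The testis itself holds germ cells from spermatogonia to spermatids, Sertoli cells that nurse them and Leydig cells that make testosterone. In RNA of the whole organ, fewer cells of a type and less RNA per cell cannot be told apart.

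Levels are given as CPM, the reads of a gene relative to the depth of its library after TMM scaling, and a difference between groups as a log2 fold change, where 1 unit is a doubling. Depth ran from 12719699 to 15771655 estimated reads per library. Pearson's r of log2 CPM ran from 0.934 to 0.989 within groups and from 0.938 to 0.986 between them. Markers of testis cells were present in every library, with sums of 84.1 to 109 CPM for spermatogonia, 1020 to 1390 CPM for spermatocytes, 11700 to 16800 CPM for spermatids, 890 to 1120 CPM for Sertoli cells and 1080 to 2100 CPM for Leydig cells. The 7 white blood cell markers summed to 8.58 to 199 CPM in 3NC, 8.87 to 9.36 in 5NC, 15.6 to 160 in the knockdown group and 8.17 to 12.8 in the overexpression group, and 3NC replicate 2 and knockdown replicate 1 were the libraries at the top. The 7 markers of the epididymis, of which Lcn8 was at 0, summed to 34.6 to 81.5 CPM in 3NC and 14.1 to 311 CPM in 5NC, against at most 19.0 CPM in the other two groups.

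The rule fixed that 5NC was lower than 3NC, so this contrast is a description and has no test. Across all genes, 0.0976% passed as lower in 5NC by edgeR with an adjusted p under 0.05, 16 genes in all, and the 10 members were among them. The members were chosen on this contrast, so their passing is no evidence. Ordered by that adjusted p, the last member was A630023A22Rik, with a log2 fold change of -2.02. After it came Hbb-bt, an adult beta-globin gene, with -6.46, and then Antxrl with -0.69. Hbb-bt held 0, 1.02 and 0 reads in 5NC, so its value is no bound. Hbb-bs, the other adult beta-globin of the reference strain, also passed and ranked above Cwc22, but is not a member. All 3 libraries of 5NC lay below all 3 of 3NC for 6.18% of all genes and for the 10 members, which were chosen on this contrast. They also lay below the other 9 libraries for 3.08% of all genes and for the 10 members. Both counts over the members use the 5NC values that chose them, and nothing is read from them.

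**Figure D1:**
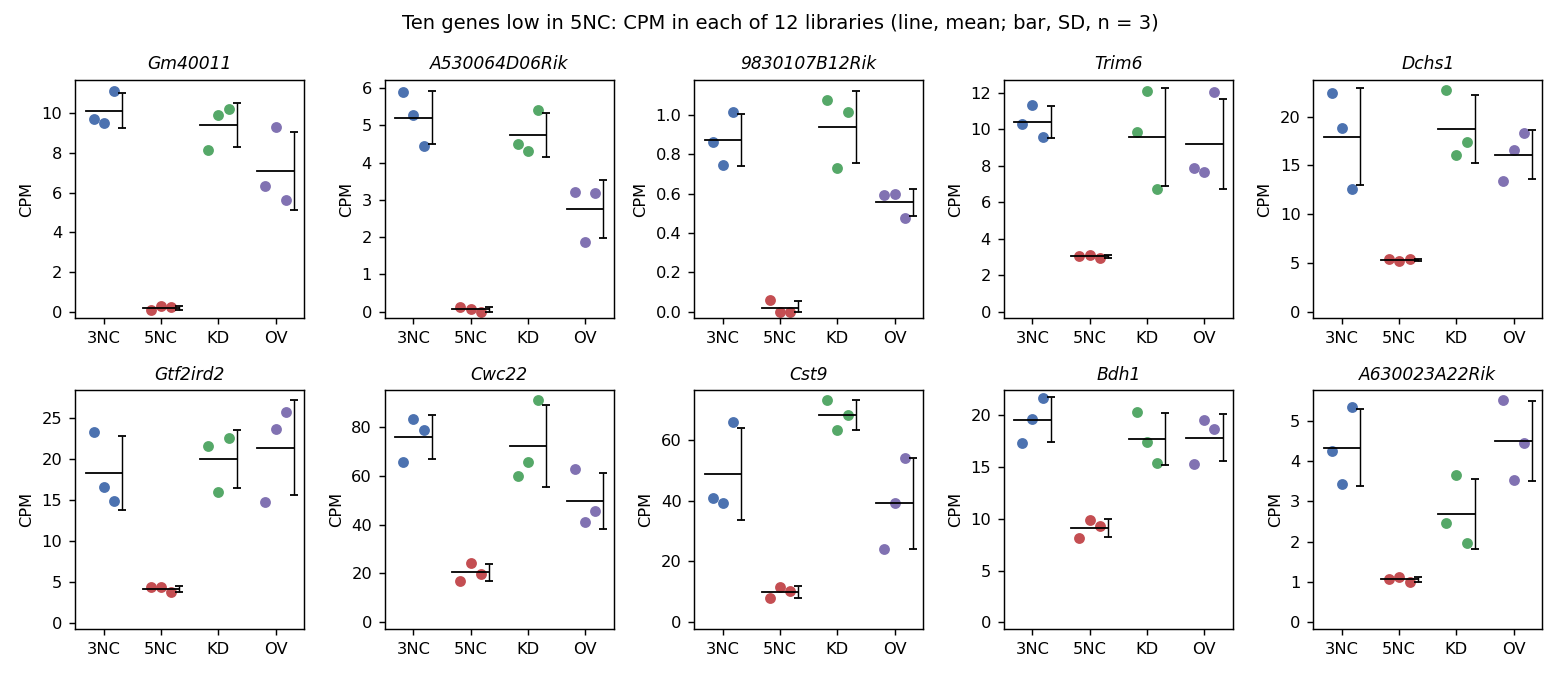
CPM of the 10 genes (y axis, linear, a scale per gene) in each of 12 libraries, grouped on the x axis as 3NC, 5NC, knockdown (KD) and overexpression (OV). Points are libraries, lines are means and bars are SD (n = 3), stopped at 0. The 3 points of 5NC lie below the other 9 in every panel, and those of Gm40011, A530064D06Rik and 9830107B12Rik lie near 0.

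The TREM genes A530064D06Rik (gene ID 328830) and 9830107B12Rik (gene ID 328829) are neighbours on the minus strand of chromosome 17. In GRCm38, the same build as mm10, they span chr17:48151896-48167257 and chr17:48099816-48146307. The RefSeq promoter table of GRCm38.p6 holds the 250 bases before each start, at chr17:48167258-48167507 and chr17:48146308-48146557, both on the minus strand. These windows are shown because the genes lie side by side, were low in the same libraries and resemble each other in sequence. Capitals mark the 4 runs of at least 20 bases that are identical in both.
A530064D06Rik: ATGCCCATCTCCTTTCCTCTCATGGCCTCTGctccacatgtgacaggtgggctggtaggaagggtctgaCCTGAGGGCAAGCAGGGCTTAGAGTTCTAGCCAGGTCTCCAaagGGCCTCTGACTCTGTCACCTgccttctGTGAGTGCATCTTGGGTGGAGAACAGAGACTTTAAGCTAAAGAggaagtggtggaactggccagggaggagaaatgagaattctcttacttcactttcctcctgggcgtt
9830107B12Rik: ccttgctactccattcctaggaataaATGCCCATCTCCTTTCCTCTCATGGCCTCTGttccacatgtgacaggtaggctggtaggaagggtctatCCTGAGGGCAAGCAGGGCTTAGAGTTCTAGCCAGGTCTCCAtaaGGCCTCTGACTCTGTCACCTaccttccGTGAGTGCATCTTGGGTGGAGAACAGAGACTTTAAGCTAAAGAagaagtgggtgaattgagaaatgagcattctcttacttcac
With gaps left out, 211 of 224 bases were identical (94.2%), and the longest identical run had 43 bases. Their transcripts also overlapped in sequence. Of the 50-base stretches in transcripts of A530064D06Rik, 3.11% occurred in 9830107B12Rik, and 4.90% of those in 9830107B12Rik occurred in A530064D06Rik. Such sharing was not limited to the pair. B430306N03Rik, a gene nearby, held 2.98% of those in A530064D06Rik and 1.02% of those in 9830107B12Rik. Its log2 fold change of 5NC against 3NC was 0.33. The deposited reads held fractions for A530064D06Rik in 8 libraries and for 9830107B12Rik in 6, so part of their reads had been divided among genes or isoforms, and the split between these copies is uncertain.

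A530064D06Rik was at 5.89, 5.28 and 4.46 CPM in 3NC and at 4.49, 4.32 and 5.40 CPM in the knockdown group. It was at 3.22, 1.86 and 3.17 CPM in the overexpression group and at 0.125, 0.0704 and 0 CPM in 5NC, where a count of 0 allows up to 0.215 CPM (3 reads, counting error only). The 3NC and knockdown libraries overlapped, the overexpression libraries lay below both, and 5NC was close to the floor. In reads, 3NC held 240, the knockdown group 216, the overexpression group 117 and 5NC 3. The scaled ratio to 5NC was 75.2 (95% exact binomial interval 25.4 to 367) for 3NC and 38.9 (13.0 to 191) for the overexpression group. Such ratios, here and for other members, pool the reads of each group, and their intervals cover counting error only. The 5NC values chose these genes, so the ratios are a description and carry no test.

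9830107B12Rik was measured at a lower level. Its CPM was 0.860, 0.746 and 1.01 in 3NC, 1.07, 0.731 and 1.01 in the knockdown group and 0.592, 0.599 and 0.476 in the overexpression group. In 5NC it was 0.0624 CPM in replicate 1, from 1 read, and 0 in the other libraries, which allows up to 0.211 CPM in replicate 2 and 0.215 CPM in replicate 3. The overexpression libraries again lay below the 3NC and knockdown libraries. Its scaled ratio to 5NC was 37.6 (6.38 to 1520) for 3NC and 23.9 (3.91 to 985) for the overexpression group, intervals so wide because 5NC held a single read. With so few reads in 5NC, the fitted log2 fold changes of both genes depend on the prior count and are no bound.

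Other tested genes around the TREM pair differed less between 5NC and 3NC, and genes removed by the low-read filter were not compared. Trem1, an activating receptor of myeloid cells and the nearest tested gene to the right, was at 2.87, 3.87 and 3.22 CPM in 5NC and at 3.38 to 5.94 CPM in the other 9 libraries. 5NC lay below 3NC and overlapped the knockdown and overexpression libraries. Of the 22 tested genes starting within 1 Mb of A530064D06Rik, its partner left out, Trem1 alone was below 3NC in all 3 libraries of 5NC, and none was below the other 9. The nearest to the left, 1700067P10Rik, had a log2 fold change of -0.33, and the largest difference there, that of Prickle4, was 0.71. Macrophage markers, 8 genes that include Lyz2, C1qa and C1qb, summed to 99.2 to 359 CPM in 3NC and 108 to 117 CPM in 5NC. The range of 5NC lay within that of 3NC.

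Trim6 (gene ID 94088, chr7:104218795-104235152) was at 10.3, 11.3 and 9.59 CPM in 3NC, 9.86, 12.1 and 6.75 CPM in the knockdown group and 7.89, 7.66 and 12.1 CPM in the overexpression group. It was at 3.06, 3.10 and 2.93 CPM in 5NC, a mean of 3.03 ± 0.0845 (SD, n = 3) or 29.1% of the 3NC mean. The 9 libraries outside 5NC overlapped one another. The coefficient of variation was 2.79% in 5NC, 8.29% in 3NC and 28.0% in the knockdown group. The 5NC libraries held 49, 44 and 41 reads, and at such counts so small a spread is below counting error. Nothing is read from it.

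The stretch of chromosome 7 around Trim6 held the most other genes with low values in 5NC. Of 13 tested genes that start within 1 Mb of Trim6, 6 lay below the other 9 libraries in 5NC, and their neighbourhood's median log2 fold change of 5NC against 3NC was -0.58. Trim5, a TRIM protein related to a retroviral restriction factor and 44.6 kb to the right, was at 1.92, 3.73 and 0.743 CPM in 3NC and at 0.125, 0.0704 and 0.143 CPM in 5NC. Hbb-bs, 392 kb to the left, was at 13.0, 14.1 and 6.01 CPM in 3NC, at 0, 0 and 0.0716 CPM in 5NC and between 3.22 and 10.4 CPM in both other groups. Hbb-bt, 406 kb to the left, ran from 0.569 to 4.29 CPM outside 5NC and was at 0, 0.0704 and 0 CPM in 5NC. Ubqlnl, the nearest to the left, was at 278, 267 and 280 CPM in 5NC, below the 284 to 373 CPM of the other 9 libraries by a small amount, with a log2 fold change of -0.31. Trim34a, the next gene to the right at 25.7 kb, had 0.01. The 10 other tested TRIM genes of the cluster and their relatives had a median of -0.29, and in the overexpression group against the knockdown group 0 of them passed by edgeR, with 0 at an unadjusted p under 0.05. Trim30d, with -3.79, was at 0.250, 0.281 and 0.358 CPM in 5NC, below the other 9 libraries, of which the lowest held 0.675 CPM and 3NC replicate 2 held 10.9 CPM. Trim30a, with -2.55, overlapped between 5NC and the others, and 3NC replicate 2 held 44.99 CPM of it against 2.71 and 2.03 CPM in the other libraries of 3NC.

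Beta-globin genes of the other common mouse haplotype were not low in 5NC. Hbb-b1 was at 21.6, 35.0 and 25.7 CPM in 5NC against 9.93, 7.89 and 7.70 CPM in 3NC. Hbb-b2 was at 3.93, 8.09 and 5.65 CPM in 5NC against 2.32, 1.49 and 0.608 CPM in 3NC. All 3 libraries of 5NC were thus above those of 3NC for both, while Hbb-bs and Hbb-bt were near 0. In the overexpression group, Hbb-b1 ran from 5.71 to 36.04 CPM and overlapped 5NC and 3NC. Of 6 tested globins, 0 passed between the overexpression and knockdown groups by edgeR and 1 had an unadjusted p under 0.05. The globin copies are near-identical in sequence, and the division of reads among them is uncertain.

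**Figure D2:**
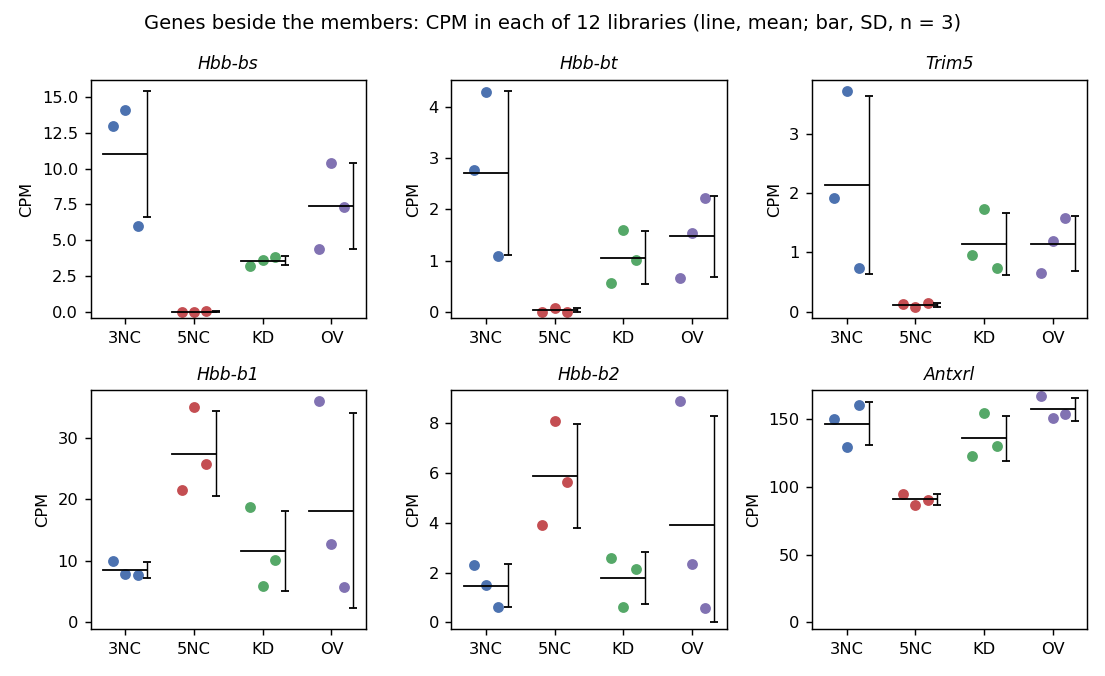
CPM of 6 genes that lie near Trim6 or A630023A22Rik or belong to the globins (y axis, linear, a scale per gene) in each of 12 libraries, grouped on the x axis as 3NC, 5NC, knockdown (KD) and overexpression (OV). Points are libraries, lines are means and bars are SD (n = 3), stopped at 0. Hbb-bs, Hbb-bt, Trim5 and Antxrl are lowest in 5NC, whereas Hbb-b1 and Hbb-b2 are above 3NC there.

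Dchs1 (gene ID 233651, chr7:105752989-105788355) lies 1.53 Mb from Trim6. It was at 22.4, 18.8 and 12.6 CPM in 3NC, 22.7, 16.1 and 17.4 CPM in the knockdown group and 13.4, 16.5 and 18.3 CPM in the overexpression group. In 5NC it was at 5.37, 5.21 and 5.37 CPM, 29.6% of the 3NC mean and with a coefficient of variation of 1.74%. That spread came from 86, 74 and 75 reads and is below counting error, so nothing is read from it. The other 9 libraries overlapped, and the lowest of them, 3NC replicate 3, was still above 5NC. None of the 20 tested genes within 1 Mb of Dchs1 was below 3NC in all 3 libraries of 5NC. The nearest, Tpp1 of the lysosome and Mrpl17 of the mitochondrial ribosome, had log2 fold changes of -0.07 and -0.01. Gvin1, an interferon-induced GTPase, had the largest difference there, -3.58, but 3NC replicate 2 held 27.9 CPM of it and the other libraries of 3NC held 1.19 and 1.22 CPM.

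As a list, the partners of Dchs1 stayed near the median of all genes between 5NC and 3NC. In the list for the Fat-Dachsous and planar polarity pathway, 12 other genes were tested, among them Fat1, Fat4 and Celsr2. Their median log2 fold change of 5NC against 3NC was -0.05, from -0.73 for the polarity gene Vangl2 to 0.19 for Fat3, against a median of -0.02 over all 16388 genes. Vangl2 itself was low in every 5NC library, at 3.06, 1.83 and 2.08 CPM against 3.25 to 5.61 CPM in the other 9. By edgeR, 0 of the 12 passed between the overexpression and knockdown groups, and 0 had an unadjusted p under 0.05.

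Gtf2ird2 (gene ID 114674, chr5:134182557-134218146) was at 23.3, 16.6 and 14.9 CPM in 3NC, 21.5, 15.9 and 22.6 CPM in the knockdown group and 14.7, 23.6 and 25.7 CPM in the overexpression group. In 5NC it was at 4.30, 4.36 and 3.72 CPM, 22.6% of the 3NC mean. All 9 libraries outside 5NC overlapped, and 5NC lay apart. Its human counterpart lies in the region deleted in Williams-Beuren syndrome, and the list of GTF2I family members and neighbours from that region held 13 other tested genes. Their median log2 fold change of 5NC against 3NC was -0.10, from -1.37 for Ncf1 to 0.73 for Eln, the elastin gene. Ncf1, a subunit of the phagocyte oxidase and the nearest gene to the right, reached 16.0 CPM in 3NC replicate 2 and 20.9 CPM in knockdown replicate 1, against 1.42 to 3.03 CPM in the other 10 libraries, which include 5NC. Rcc1l, the nearest gene to the left, had 0.30. Of 24 tested genes within 1 Mb, 3 lay below 3NC in every 5NC library, against 6.18% of all genes, and 2 lay above. Below the other 9 libraries lay 1 of them, against 3.08% of all genes. The related factors Gtf2i and Gtf2ird1 had log2 fold changes of 0.0030 and 0.12. By edgeR, 0 of the 13 passed between the overexpression and knockdown groups, and 1 had an unadjusted p under 0.05.

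Cwc22 (gene ID 80744, chr2:77881159-77946356) was at 65.6, 83.2 and 78.8 CPM in 3NC and at 59.8, 65.7 and 91.2 CPM in the knockdown group. It was at 62.9, 40.9 and 45.5 CPM in the overexpression group and at 17.1, 24.3 and 19.96 CPM in 5NC. 5NC lay lowest, the overexpression libraries lay below every 3NC library, and overexpression replicate 1 overlapped the knockdown libraries. The gene lies in a segment, known as R2d, whose copy number differs among mice. Of the 50-base stretches in its transcripts, 16.5% occurred in Gm13691 and in related copies on the same chromosome, which are not in the table, so reads from such copies could not be told apart from those of Cwc22. Zfp385b on the left spans chr2:77410622-77817706 and Ube2e3 on the right starts 987 kb away. These nearest tested genes had log2 fold changes of 5NC against 3NC of -0.28 and 0.02.

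Genes that act with Cwc22 had small differences between 5NC and 3NC. The list of exon junction genes held 17 other tested genes, including Eif4a3, Magoh and Rbm8a of the core. Their median log2 fold change of 5NC against 3NC was 0.05, from -0.29 for the decay factor Upf3b to 0.23 for Cwc27. By edgeR, 0 of the 17 passed between the overexpression and knockdown groups, and 0 had an unadjusted p under 0.05.

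The promoter windows of Gm40011 and Cwc22 are shown because they were the ones among the members that held the letters TGACG, the core of the cAMP response element that CREB and CREM bind, searched on both strands without overlapping another searched motif. They lie at chr2:173082530-173082779 on the plus strand and chr2:77946357-77946606 on the minus strand of GRCm38.p6, per RefSeq. Capitals mark the match, which starts 239 bases before the start of Gm40011 and, as its reverse complement CGTCA, 83 bases before that of Cwc22.
Gm40011: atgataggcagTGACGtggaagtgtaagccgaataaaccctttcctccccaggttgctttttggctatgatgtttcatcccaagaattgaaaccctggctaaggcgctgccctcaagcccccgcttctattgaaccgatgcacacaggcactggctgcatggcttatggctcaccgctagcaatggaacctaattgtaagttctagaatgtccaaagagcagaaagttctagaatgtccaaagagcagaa
Cwc22: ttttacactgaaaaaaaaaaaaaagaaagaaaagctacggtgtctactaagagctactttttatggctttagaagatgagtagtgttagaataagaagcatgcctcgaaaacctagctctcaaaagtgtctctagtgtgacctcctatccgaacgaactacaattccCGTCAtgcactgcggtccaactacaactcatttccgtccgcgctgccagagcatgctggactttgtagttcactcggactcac
Of 32851 windows of the same length, 17.8% held TGACG. The other searched motifs were TATAAA, in 12.4% of all windows, CCAAT in 33.8% and GGGCGG in 32.7%. Among the 9 members with a window, GGGCGG was found in Trim6, 7 bases before its start, and CCAAT in A630023A22Rik, 131 bases before its start. TATAAA was found in none of them. Dchs1 has no entry. GC content ran from 42.8% in Cwc22 to 64.0% in Gtf2ird2, against a median of 52.4% over all windows, and Gtf2ird2 held 22 CpG pairs against a median of 6. No motif was thus shared by more than a pair of members.

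Cst9 (gene ID 13013, chr2:148835147-148838737) was the member with the highest level per length. The authors' FPKM, which also divides by transcript length, had a median of 99.2 over the 9 libraries outside 5NC, above 94.2% of all genes, and 19.3 in 5NC. In CPM it was at 40.8, 39.4 and 66.1 in 3NC, at 73.0, 63.4 and 68.1 in the knockdown group, at 23.9, 39.4 and 53.9 in the overexpression group and at 7.99, 11.8 and 10.3 in 5NC. The overexpression libraries lay below the knockdown libraries and overlapped those of 3NC, and 5NC lay below them all. Cst9 sits in a cluster of cystatin genes, which encode inhibitors of cysteine proteases and their relatives. The nearest tested gene on the left, Cst13 at -15.1 kb, had a log2 fold change of 5NC against 3NC of -0.25. The nearest on the right, 9230104L09Rik at 9.47 kb, had 1.17 and ran from 0.675 to 7.08 CPM within 3NC alone. For 6 other tested cystatins the median was -0.13, from -0.96 for Cstb to 0.23 for Cstl1. Cstb was at 44.87 CPM in 3NC replicate 2 against 13.9 and 9.12 CPM in the other libraries of 3NC, with 11.4 to 12.03 CPM in 5NC. Of these cystatins 0 passed between the overexpression and knockdown groups by edgeR, with 0 at an unadjusted p under 0.05. Sertoli cell markers, 9 genes with Clu and Cldn11, summed to 913 to 1110 CPM in 3NC and 890 to 1030 CPM in 5NC.

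Bdh1 (gene ID 71911, chr16:31422297-31458901) fell least of the 10. It was at 17.3, 19.7 and 21.7 CPM in 3NC, 20.4, 17.4 and 15.4 CPM in the knockdown group and 15.3, 19.6 and 18.7 CPM in the overexpression group. In 5NC it was at 8.17, 9.85 and 9.30 CPM, 46.5% of the 3NC mean. The 9 libraries outside 5NC overlapped, and 5NC lay below them. The nearest tested genes, Apod on the left and the scaffold gene Dlg1 on the right, had log2 fold changes of 5NC against 3NC of -1.28 and -0.25. Apod, which encodes an apolipoprotein, was at 0.662, 1.99 and 2.499 CPM in 3NC and overlapped 5NC at 0.633 to 0.749 CPM. Over 11 other tested genes of ketone body metabolism the median log2 fold change of 5NC against 3NC was -0.08, and the monocarboxylate transporter Slc16a7 had -0.26. The testis forms of the enzyme that uses ketone bodies, Oxct2a and Oxct2b, had -0.09 and -0.17. By edgeR, 0 of the 11 passed between the overexpression and knockdown groups, and 0 had an unadjusted p under 0.05.

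Gm40011 (gene ID 105244392, chr2:173082780-173138200) was at 9.73, 9.51 and 11.1 CPM in 3NC, 8.16, 9.90 and 10.2 CPM in the knockdown group and 6.31, 9.32 and 5.63 CPM in the overexpression group. In 5NC it was at 0.0624, 0.281 and 0.215 CPM. The 8 reads of 5NC stood against 465 in 3NC and 307 in the overexpression group, scaled ratios of 54.7 (95% exact binomial interval 27.5 to 127) and 38.3 (19.2 to 89.5). These ratios again pool the reads of each group, cover counting error only and carry no test. The overexpression libraries lay below every 3NC library, and overexpression replicate 2 lay among the knockdown libraries. Its span contains Ctcfl, also known as Boris, the testis paralog of the chromatin protein CTCF, at chr2:173093609-173119525. Ctcfl was at 2.73 to 4.19 CPM in 3NC and at 2.56 to 3.01 CPM in 5NC, and these overlapped. The study's methods name no step that marked strand, so reads from overlapping genes may be told apart by position alone. Among 20 tested genes within 1 Mb, none was below 3NC in all 3 libraries of 5NC. Rbm38, an RNA-binding protein gene and the nearest to the left, had a log2 fold change of -0.02. Zbp1, a nucleic acid sensor, had the largest, -2.17, and 3NC replicate 2 held 36.5 CPM of it against 1.19 and 0.608 CPM in the other libraries of 3NC.

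A630023A22Rik (gene ID 105518, chr14:34051126-34102754, minus strand) was at 4.24, 3.42 and 5.34 CPM in 3NC, 2.47, 3.66 and 1.96 CPM in the knockdown group and 5.52, 3.53 and 4.44 CPM in the overexpression group. In 5NC it was at 1.06, 1.13 and 1.002 CPM, 24.5% of the 3NC mean. Knockdown replicates 1 and 3 lay below every library of 3NC and of the overexpression group, and 5NC lay below them all. Antxrl, which lies on the opposite strand within its span at chr14:34052668-34076323, was also lowest in 5NC, at 95.02, 86.8 and 90.4 CPM against 123 to 167 CPM in the other 9 libraries. If strand was not marked, reads from A630023A22Rik and Antxrl cannot be told apart where they overlap. The reads of A630023A22Rik held fractions in all 12 libraries. Anxa8, an annexin gene on the same opposite strand, had a log2 fold change of 5NC against 3NC of 0.57. Gm5460, the nearest tested gene to the left, had -0.11, and Syt15, a synaptotagmin gene, had the largest difference within 1 Mb, -0.83, at 0.250 to 0.573 CPM in 5NC and 0.333 to 1.18 CPM elsewhere.

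Set side by side, the fitted log2 fold changes of 5NC against 3NC had a median of -2.08 over the members, and those of the overexpression group against 5NC had a median of 2.02. Those of the knockdown group against 3NC had a median of -0.09. These comparisons share control libraries with the choice of the genes, so they carry no test. Over all 16388 genes the same medians were -0.02, -0.01 and -0.02. The level in the overexpression group relative to 3NC differed among the members. The overexpression mean was 52.8% of the 3NC mean for A530064D06Rik, 63.7% for 9830107B12Rik, 65.6% for Cwc22 and 70.0% for Gm40011. It was 80.1% for Cst9, 88.4% for Trim6, 89.6% for Dchs1, 91.2% for Bdh1, 104% for A630023A22Rik and 117% for Gtf2ird2. All 3 overexpression libraries lay below all 3 of 3NC for the 4 genes of the former group, while 3.19% of all genes did so. The 3NC values were used to choose the members, so nothing is read from counts against 3NC. The knockdown mean ran from 62.2% of the 3NC mean for A630023A22Rik to 140% for Cst9. Knockdown and 3NC libraries did not overlap for 11.3% of all genes and for 0 of the 10 members.

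The overexpression and knockdown groups are the ones the choice did not use, and their difference was tested with edgeR's quasi-likelihood test over all 16388 genes. By the adjusted p, 0 of 10 members passed, against 2 genes or 0.0122% of all genes, and 0 of 10 passed by DESeq2 or limma. Those were Gm6121 and Gm14525, named here after their values were seen, with log2 fold changes of -3.48 and -2.36. Before adjustment, 4 members had p under 0.05, against 4.02% of all genes. Cst9, A530064D06Rik and Cwc22 had lower values in the overexpression group, with log2 fold changes of -0.81 (SE 0.27, 95% interval -1.40 to -0.21), -0.78 (SE 0.31, -1.47 to -0.10) and -0.54 (SE 0.20, -0.97 to -0.10). A630023A22Rik had a higher value there, with 0.74 (SE 0.27, 0.14 to 1.33). The unadjusted p of edgeR was 0.0125 for Cst9, 0.0193 for A630023A22Rik, 0.0202 for Cwc22 and 0.0282 for A530064D06Rik. Each of these 4 had an edgeR adjusted p of 0.999, so none is called changed.

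Counted by library, the overexpression group lay below the knockdown group in every library for 5.23% of all genes and for 3 of 10 members, A530064D06Rik, 9830107B12Rik and Cst9. It lay above in every library for 5.28% of all genes and for 0 of 10 members. The median log2 fold change was -0.31 over the members, with 7 lower and 3 higher, against -0.01 over all genes. The intervals of the other 6 members included 0. That of 9830107B12Rik ran from -1.59 to 0.10 and that of Gm40011 from -0.95 to 0.14. Those of Bdh1 (-0.31 to 0.33), Trim6 (-0.55 to 0.43), Gtf2ird2 (-0.40 to 0.59) and Dchs1 (-0.68 to 0.23) lay closest around 0. A change of 2-fold between the groups was outside the interval for these 4, for Gm40011 and for Cwc22.

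**Figure D3:**
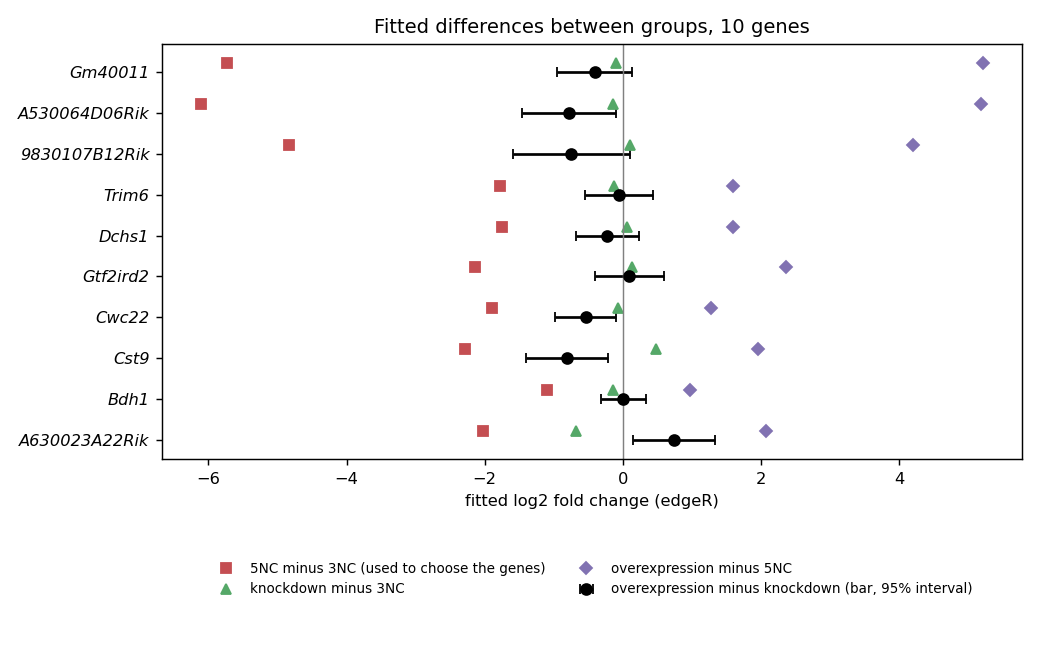
Fitted log2 fold changes (x axis) of the 10 genes (y axis) in 4 comparisons, marked by symbol. The circles with bars, overexpression minus knockdown with 95% intervals, sit between -0.81 and 0.74, while the squares, 5NC minus 3NC, which chose the genes, sit between -6.10 and -1.10 and the diamonds, overexpression minus 5NC, between 0.97 and 5.22.

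Of the markers in the macrophage, white blood cell, Leydig cell and epididymis lists, 0 passed between the overexpression and knockdown groups by edgeR. The 8 macrophage markers had a median log2 fold change of -1.27 and summed to 118 to 131 CPM in the overexpression group against 108 to 484 CPM in the knockdown group, with 3 of 8 at an unadjusted p under 0.05. The 5 tested white blood cell markers had a median of -2.88, with 3 of 5 at an unadjusted p under 0.05. Knockdown replicate 1 stood apart in both lists, with 27.0 CPM of Cd68 against 5.38 and 4.73 CPM in the other knockdown libraries. The 7 Leydig cell markers had a median of 0.58 and 3 of 7 at that level, and summed to 1490 to 2080 CPM against 1120 to 1460 CPM. Without 3NC replicate 2 and knockdown replicate 1, the libraries rich in white blood cell markers, the log2 fold change was -0.82 for A530064D06Rik, -0.64 for 9830107B12Rik, -0.76 for Cst9, -0.66 for Cwc22 and 0.68 for A630023A22Rik. The 4 tested epididymis markers had a median of -2.77, with 1 of 4 at an unadjusted p under 0.05, and knockdown replicate 1 held 13.2 CPM of Crisp1 against 0.0665 and 0.608 CPM in the other knockdown libraries and 0.0793 to 0.197 CPM in the overexpression group. The part of Leydig or epididymis content in these differences was not tested.

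Genes around the members were compared in the same way. Of 155 tested genes that start within 1 Mb of a member, members left out, 0 passed by edgeR, DESeq2 or limma and 8 had an unadjusted p under 0.05 in edgeR, against 4.02% of all genes. All 3 overexpression libraries were below those of the knockdown group for 16 of the 155, against 5.23% of all genes, and above them for 9, against 5.28%. Their median log2 fold change was -0.01. Between 5NC and 3NC their median absolute log2 fold change was 0.23, against 0.16 over all genes, and 9 of the 155 lay below the other 9 libraries in 5NC, against 3.08% of all genes. Of these 9, 6 were near Trim6, 1 was Antxrl, 1 was Trerf1 near the TREM pair and 1 lay near Gtf2ird2.

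**Figure D4:**
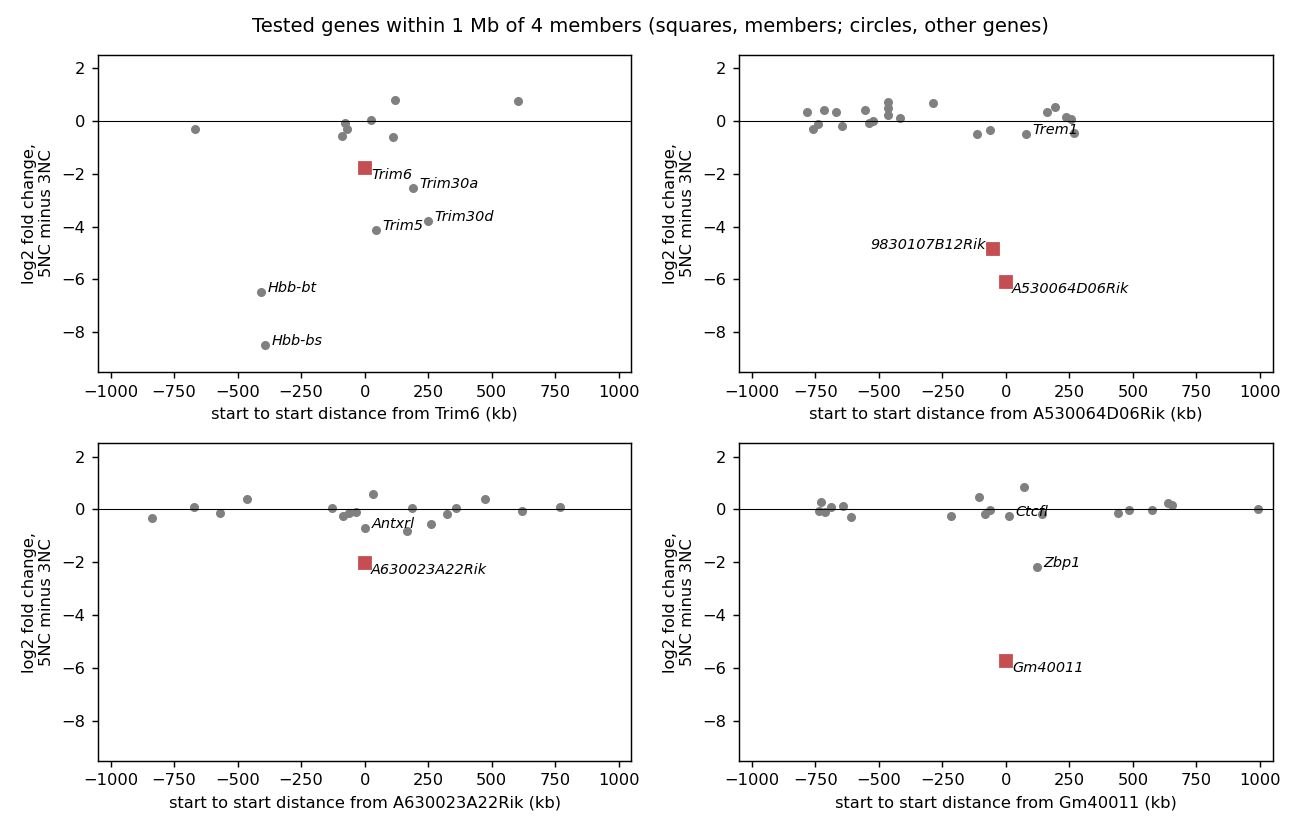
Fitted log2 fold change of 5NC minus 3NC (y axis) of tested genes by their distance (x axis, kb, between the lower ends of the genes) from Trim6, A530064D06Rik, A630023A22Rik and Gm40011. Squares are members and circles other genes. Hbb-bs, Hbb-bt and Trim5 lie far below 0 beside Trim6, whereas the non-members around A530064D06Rik stay between -0.51 and 0.71.

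Likeness of profiles was measured as the root-mean-square difference of log2 CPM over the 12 libraries, after each gene was set to mean 0 and SD 1. The members' distance to their own mean ran from 0.155 for Gm40011 to 0.517 for A630023A22Rik, against a median of 1.41 over all genes. The low 5NC values that chose the members shape these profiles and their mean, so this closeness follows from the choice. The nearest genes outside the 10 were Hbb-bs at 0.300, Nup98 at 0.329, Poli at 0.353, Slc29a3 at 0.367 and Rbms1 at 0.371. Sept3, Specc1, Zkscan1, Slc30a1 and Cntnap5c followed at 0.384 to 0.396. Nup98, a nuclear pore protein encoded on chromosome 7 at 2.10 Mb from Trim6, was at 418, 409 and 405 CPM in 5NC and at 519 to 601 CPM in the other 9 libraries. It was thus low in every 5NC library by a small amount, with a log2 fold change of -0.41. The points of such a profile share their libraries and their scaling, so likeness carries no p.

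The nearest gene outside the 10 was also taken for each member, with the other members left out of the search. Of these genes, Trim6 was nearest to Nup98 (0.295), and A630023A22Rik to Antxrl (0.262), with which it overlaps. Dchs1 and Gtf2ird2 were both nearest to Snhg11 (0.352 and 0.283), a small nucleolar RNA host gene on chromosome 2. Outside the 10, the TREM pair was nearest to Ghrh (0.341 for A530064D06Rik and 0.270 for 9830107B12Rik), the gene of growth hormone-releasing hormone, which was at 1.12, 0.703 and 0.573 CPM in 5NC and 1.51 to 2.70 CPM in the other 9 libraries. Among non-members, Cwc22 was nearest to Rbms1 (0.387), Cst9 to LOC100038947 (0.369), Bdh1 to Slc30a1 (0.308) and Gm40011 to Hbb-bs (0.304). These genes were chosen for likeness, so their levels are a description.

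**Figure D5:**
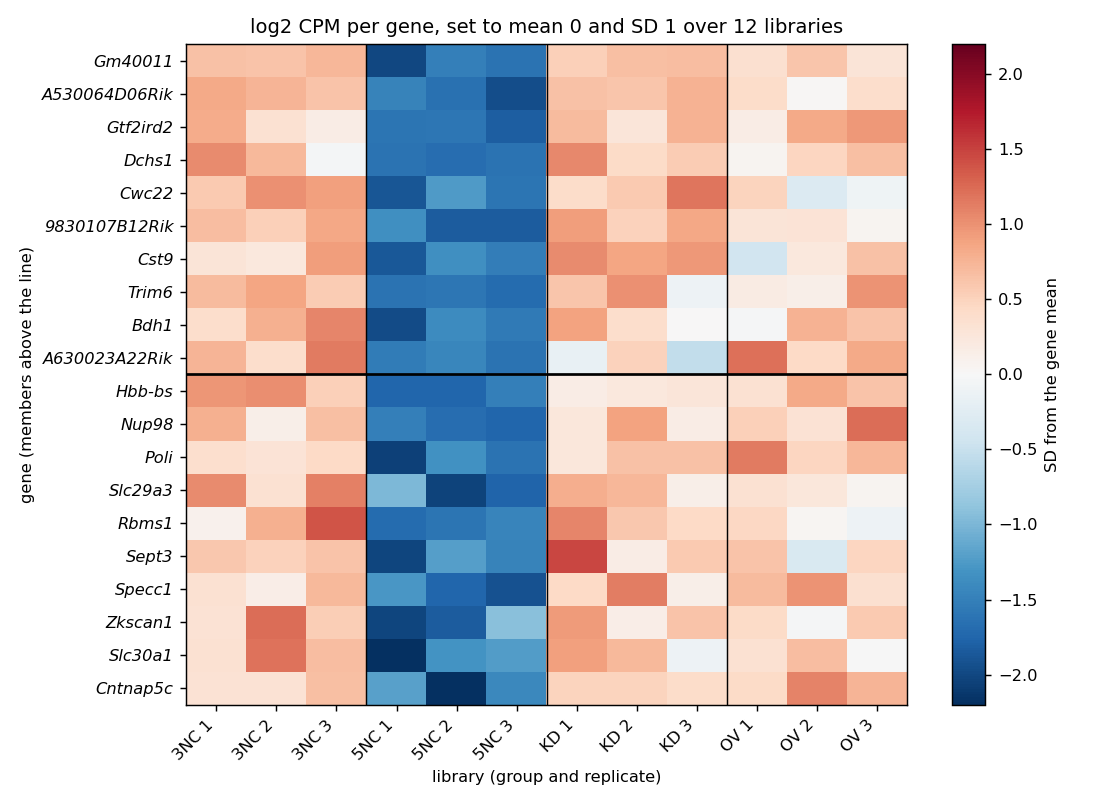
log2 CPM of the 10 members (above the line) and the 10 genes nearest to their mean (below it), by gene on the y axis and library on the x axis. Colour gives SD from the gene's own mean over 12 libraries, blue below and red above it. The 3 columns of 5NC are blue throughout, and the overexpression columns (OV) of A530064D06Rik, 9830107B12Rik and Cwc22 are paler than those of 3NC.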

How the data were processed

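The authors aligned reads to mouse reference genes with SOAPaligner, per the study's methods, and the labels name build mm10. The methods describe oligo(dT) beads, while the labels say total RNA. Estimated counts, unscaled and with fractions for 17.3% of genes, and FPKM values, both computed by the authors, stand in 1 deposited table. No source used here gives the rule that divided reads among genes. Another 18 per-sample columns were not used.

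Counts were rounded, and edgeR 4.0.16 in R 4.3.3 (filterByExpr, TMM, glmQLFit, glmQLFTest) was fitted to all 12 libraries with 1 coefficient for each group. It kept 16388 of 20788 genes. Benjamini-Hochberg adjustment ran over the genes kept, and an adjusted p under 0.05 passed. The biological coefficient of variation came to 22.9%, with 8 residual and 3.37 prior degrees of freedom. Depth, 12719699 to 15771655 reads, sets the intervals of low genes, which cover counting error only. No pair of libraries of 1 group was alike within sampling noise (chi-square per degree of freedom at least 3.5). Groups and replicate numbers came from the sample titles. Positions, symbols and promoter windows came from RefSeq tables of GRCm38, matched for 20630 genes by ID, and promoters for 9 of the 10 genes. Shared 50-base stretches were counted in GENCODE transcripts.

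The members and lists were chosen with earlier results of these data known. By rule, names were drawn from the members, the beta-globin genes, the tested genes nearest to each member on either side and the most different within 1 Mb, the nearest profiles, the genes of each list with the highest FPKM, and genes called lower in 5NC, not all of which are named. Trim5, Vangl2, Cstb, Trim30a, Trim30d, Anxa8, Trerf1, Fat4, Magoh, Rbm8a, Gm6121 and Gm14525, among others, were named after their values were seen. The scripts were tested on simulated data. There, edgeR recovered 22.4% of 1.5-fold, 58.2% of 2-fold and 84.8% of 4-fold changes between the overexpression and knockdown groups. Genes that differ can thus fail to pass. Alternatives were RLE size factors, no filter, a replicate block, the 6 libraries compared alone, each library left out, 3NC replicate 2 and knockdown replicate 1 left out together, DESeq2 1.42.0, limma 3.58.1 on log2 CPM (prior count 2) and on log2(FPKM + 0.1) or log2(FPKM + 1) where 3 libraries reached an FPKM of 0.5, and, added after the data were seen, total counts without scaling.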

Additional observations from a re-analysis of the deposited data

How the results depend on the processing

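Between the overexpression and knockdown groups, 0 members and 0 neighbouring genes passed under every alternative run. The lowest adjusted p of a member was 0.606, for Cst9 without 3NC replicate 2, and that of Cst9 reached 1 in other settings. The count over all genes was 2 by edgeR, 13 by DESeq2 and 1 to 7 with each library left out in turn, with 7 without 3NC replicate 3 and 1 without knockdown replicate 2, overexpression replicate 1 or overexpression replicate 2. The cause was not tested. With an arm of 2 libraries the spread was estimated over all groups. The log2 fold changes near 0 changed sign, with ranges over all settings of -0.0519 to 0.30 for Gtf2ird2, -0.29 to 0.16 for Trim6 and -0.0703 to 0.12 for Bdh1. Bdh1 also came to -0.00053 with total counts without scaling. The other 7 members kept their direction in all settings. 9830107B12Rik was not among the genes kept in the FPKM fits.

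Replicate numbers did not pair the libraries, since same-numbered overexpression and knockdown libraries deviated together with r of 0.0101, 0.0787 and -0.063. With the replicate block, the count over all genes was 2 and that of members 0, and the log2 fold change of Bdh1 was -0.00038.

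Depth limits 9830107B12Rik most, with 24 to 43 reads per group outside 5NC and an interval of -1.59 to 0.10 between the overexpression and knockdown groups.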

Other observations

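Genes that passed as lower in 5NC by edgeR but are no member were Hbb-bs, Hbb-bt, Antxrl, Glipr1l3, Rbms1 and Gxylt2. Outside the globins their differences were smaller than those of the members, with log2 fold changes of -0.69 for Antxrl, -0.64 for Glipr1l3, -0.55 for the RNA-binding protein gene Rbms1 and -0.97 for the xylosyltransferase gene Gxylt2. Rbms1 was at 73.2, 74.3 and 76.2 CPM in 5NC and at 94.7 to 121 CPM in the other 9 libraries, so 5NC did not overlap the other groups, which overlapped one another. Snhg11, the nearest profile to Dchs1 and Gtf2ird2, was at 3.37, 3.17 and 2.93 CPM in 5NC and at 5.00 to 13.3 CPM elsewhere.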
